A study of Mus musculus with 64 samples.

Results

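RNA from the brains of 4 mice lacking both Hmgn1 and Hmgn2 was set against RNA from the brains of 4 wild types, which gives 8 arrays of the 64 in the study. The members were taken by their labels alone: the 4 brain arrays of the genotype Hmgn1-/-n2-/- and the 4 brain arrays of the wild types lettered E to H. All 16 mice of the study were males of 21 weeks, and brain, liver, spleen and thymus of each mouse were put on 1 array per organ. Both groups carry the strain label C57BL/6J. The labels give both mutations as homozygous and name no Cre driver or transgene. A first cohort, with the strain label C57BL/6, holds 4 wild types and 4 homozygous Hmgn2-/- mice, and its 8 brain arrays share the estimate of the spread here. No mouse lacking Hmgn1 alone was among these samples, so the loss of Hmgn1, the strain label and the cohort cannot be told apart where the mutants are compared. The RNA came from the brain as a whole, and fewer cells of a type and less RNA per cell cannot be told apart in any value below.

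HMGN proteins are small nuclear proteins that bind the nucleosome core through a conserved domain and compete there with the linker histone H1. HMGN1 and HMGN2 are the most widely expressed members and occupy chromatin at enhancers and promoters, where the loss of one can be covered by the other. In the brain they have been studied mainly in the oligodendrocyte lineage, and they have also been linked to DNA repair.

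Levels are log2 normalized intensities, on a scale where the dimmest probes lie near 4, and they compare arrays for 1 gene, not 1 gene with another. A gene was called where the Benjamini-Hochberg adjusted p of limma over all 9157 genes tested was under 0.05, and ± after a log2 difference is limma's standard error with 4 mice in each group. The 8 arrays detected 11784 to 12623 probes in wild types and 11809 to 12096 in double knockouts. The array of double knockout replicate 1 correlated less with the other brain arrays than a fence of 1.5 interquartile ranges allows. Markers of brain cells were present. Of 19 synaptic vesicle genes on the array 16 were tested, and all 16 were detected on all 8 arrays. Of 19 myelin genes on the array 16 were tested, and 15 were detected on all 8. A tested gene had already passed detection on at least 4 of the 16 brain arrays, so these shares are high in part by selection.

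Hmgn2 was the largest change. Its probe read 10.49, 10.50, 10.62 and 10.34 in the 4 wild types and 5.11, 4.79, 4.86 and 4.84 in the 4 double knockouts, of which 1 array was called detected. The groups lay far apart, and the change was -5.58 ± 0.11 (limma, adjusted p = 1.14e-16). Hmgn1, the other targeted gene, read 10.60, 10.61, 10.66 and 10.70 in wild types and 10.49, 10.34, 10.33 and 10.48 in double knockouts. Those groups did not overlap, as was so for 7.6% of all genes, but the difference of -0.23 ± 0.13 did not pass (limma, adjusted p = 0.851). No label or file used here says whether the Hmgn1 probe lies in the deleted part of the gene, so its signal does not check the Hmgn1 genotype. The other HMGN genes on the array differed by -0.05 ± 0.11 for Hmgn3 and by -0.16 ± 0.17 for Hmgn5, with overlapping groups and adjusted p-values of 0.998 and 0.984 by limma.

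In all, 13 genes were called, 0.142% of those tested. Dao, Ccng2, Trim11, Zfp940, Sgsm1, Ehd1, Psmd8, Lgals4 and Pop4 rose in the double knockout, which is 0.0983% of the genes tested. Hmgn2, Mrps27, Dhdds and Hsd17b11 fell, which is 0.0437%. The 4 double knockouts and the 4 wild types did not overlap for any of the 13, nor for 7.6% of all genes tested. The 13 were called on these same arrays, so the lack of overlap adds no separate support. Over all 9157 genes the median difference was 0.01. At the outer 5 percent on each side the differences began at -0.26 and 0.27, and 9 genes moved by more than 1 on the log2 scale. An unadjusted p under 0.05 was reached by 596 genes, 6.51%.

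**Figure D1:**
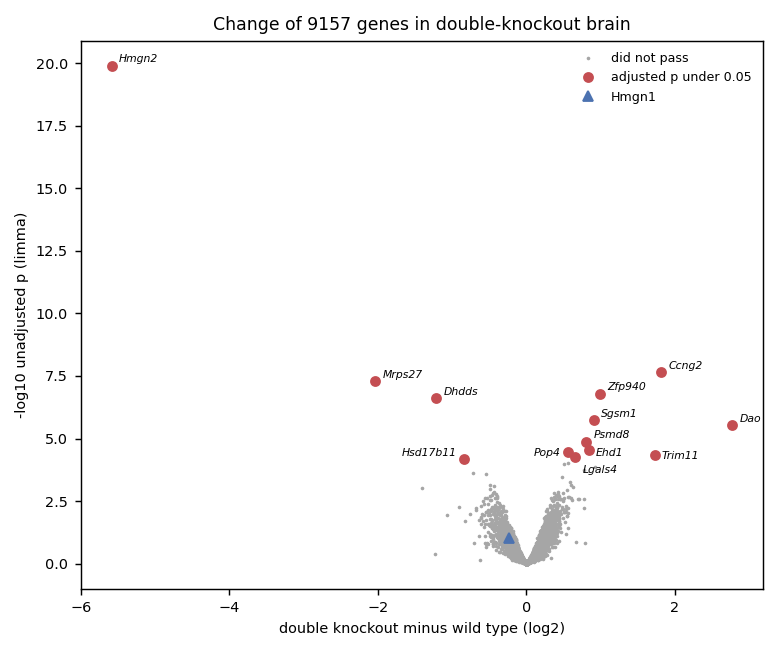
Each point is 1 of the 9157 genes, with the double knockout minus wild type difference in log2 across and the negative log10 of limma's unadjusted p upwards. Red points are the 13 called genes, grey points did not pass, and the blue triangle is Hmgn1 at -0.23. Hmgn2 stands alone at -5.58, and the remaining called genes lie between -2.04 and 2.77.

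Ccng2 encodes cyclin G2, an unconventional cyclin whose expression goes with arrest of the cell cycle and whose gene is a known FoxO target. It read 4.95, 4.48, 4.48 and 5.09 in wild types, where 2 arrays were called detected, and 6.92, 6.13, 6.66 and 6.56 in double knockouts. Every double knockout lay above every wild type by more than 1 on the log2 scale. The rise was 1.82 ± 0.19 (limma, adjusted p = 0.000105). With 2 wild types at background its size depends on the processing, from 0.64 with no background correction to 2.41 in the deposited normalized table, and it passed in both. The first cohort lay higher still, at 7.20, 7.97, 7.32 and 7.69 in its wild types and at 7.35 to 7.82 in the Hmgn2-/- mice. So the wild types of the double knockout were the lowest of the 4 brain groups for Ccng2, and the double knockouts lay between them and the first cohort.

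Dao encodes D-amino acid oxidase, the flavoenzyme that degrades D-serine and other D-amino acids, and is found in astrocytes of the hindbrain and cerebellum. Its probe read 4.23, 4.32, 4.34 and 6.66 in wild types and 7.72, 7.57, 7.67 and 7.68 in double knockouts. Only wild type replicate 4 was called detected among the wild types, while the double knockouts lay close together and all 4 were detected. The rise was 2.77 ± 0.41 (limma, adjusted p = 0.00389), or 3.34 (adjusted p = 2.22e-06) without wild type replicate 4. In the first cohort Dao read 5.56 to 7.18 in wild types and 6.09 to 6.74 in Hmgn2-/- mice, below the double knockouts and above 3 of the 4 wild types of the second.

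Trim11 encodes a ubiquitin ligase of the tripartite motif family. The wild types split into a pair at 6.06 and 5.93, replicates 1 and 4, and a pair at 4.28 and 4.22, replicates 2 and 3, which were not detected. The double knockouts read 6.60, 6.92, 6.86 and 7.03, above all wild types but nearer to the upper pair. The fitted rise was 1.73 ± 0.33 (limma, adjusted p = 0.0394). It fell short of the threshold without wild type replicate 2, without wild type replicate 3 and without any 1 of the double knockouts, at adjusted p-values of up to 0.167.

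Zfp940, a zinc-finger protein by its name, read 4.88, 4.82, 5.05 and 5.40 in wild types, with 2 arrays detected, and 6.01, 6.09, 5.95 and 6.08 in double knockouts. The rise was 0.99 ± 0.12 (limma, adjusted p = 0.000371), and the wild types spread more than the double knockouts (SD 0.26 and 0.063). Sgsm1 encodes a protein with RUN and TBC domains that acts on small GTPases in neurons. Its 4 wild types read 8.38, 8.50, 8.51 and 9.06 and its double knockouts 9.45, 9.55, 9.44 and 9.62. The rise was 0.91 ± 0.13 (limma, adjusted p = 0.00289), and wild type replicate 4 was the wild type nearest to the mutants, as for Dao and Zfp940.

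Psmd8 encodes a subunit of the lid of the proteasome's regulatory particle. It read 8.94, 9.02, 9.08 and 8.84 in wild types and 9.77, 9.86, 9.57 and 9.89 in double knockouts, a rise of 0.80 ± 0.14 (limma, adjusted p = 0.0153). Both cohort 1 groups read 9.38 to 10.05, so here too the wild types of the second cohort were the low group. Pop4, a protein subunit of the RNA-processing enzymes RNase P and RNase MRP, read 9.04, 8.95, 9.12 and 9.14 against 9.70, 9.70, 9.58 and 9.51. That is a rise of 0.56 ± 0.10 (limma, adjusted p = 0.0316).

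Ehd1 encodes an EH-domain ATPase that returns endocytosed receptors to the cell surface. It read 5.14, 5.62, 5.61 and 5.41 in wild types and 6.11, 6.15, 6.27 and 6.61 in double knockouts, a rise of 0.84 ± 0.15 (limma, adjusted p = 0.0295). Lgals4 encodes galectin-4, a sugar-binding protein best known from the gut epithelium. It read 5.75, 5.46, 5.46 and 5.49 against 6.11, 6.04, 6.41 and 6.25, a rise of 0.66 ± 0.12 (limma, adjusted p = 0.04). A second detected probe of Lgals4 differed by 0.15 ± 0.12 and did not pass (limma, adjusted p = 0.897 over all probes), so the probes of this gene disagree.

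Mrps27 encodes a protein of the small subunit of the mitochondrial ribosome. It read 6.44, 7.02, 7.17 and 6.84 in wild types and 4.89, 4.84, 4.92 and 4.68 in double knockouts, of which 1 was called detected. The change was -2.04 ± 0.23 (limma, adjusted p = 0.00016). With 3 double knockouts at background it ran from -0.77 with no background correction to -2.63 in the deposited normalized table, passing in both. The first cohort read 5.97 to 7.02 in wild types and 5.76 to 6.79 in Hmgn2-/- mice, so the double knockouts were the low group of the 4.

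Dhdds encodes the catalytic subunit of cis-prenyltransferase, which builds the isoprenoid chain of dolichol, the lipid carrier of N-glycosylation. It read 6.85, 7.07, 6.89 and 6.85 in wild types and 5.75, 5.59, 5.43 and 6.03 in double knockouts, a change of -1.22 ± 0.15 (limma, adjusted p = 0.000457). In the first cohort the Hmgn2-/- mice read 5.19, 5.78, 5.73 and 5.71 and their wild types 6.44 to 6.94. Dhdds was therefore low in both mutants, and it lies next to Hmgn2 among the tested genes of chromosome 4. A second probe moved by -0.99 ± 0.22, detected in 4 wild types and 2 double knockouts, and did not pass over all probes (limma, adjusted p = 0.125).

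Hsd17b11 encodes a 17-beta-hydroxysteroid dehydrogenase of lipid droplets. It read 6.95, 6.99, 7.29 and 7.42 in wild types and 6.12, 6.21, 6.11 and 6.87 in double knockouts. Double knockout replicate 4 lay just under the lowest wild type, and the other 3 lay near 6.1. The change was -0.84 ± 0.16 (limma, adjusted p = 0.048), and a second probe of the gene passed as well, at -0.86 ± 0.13 (limma, adjusted p = 0.0027 over all probes).

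**Figure D2:**
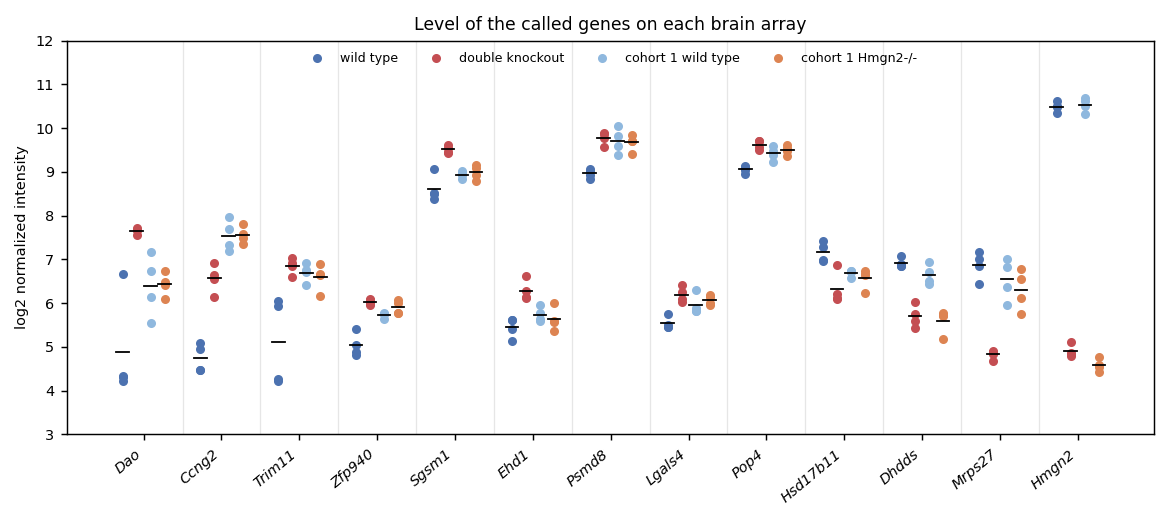
Log2 normalized intensity of the 13 called genes on each of the 16 brain arrays. Dark blue points are the wild types and red points the double knockouts, light blue points the wild types and orange points the Hmgn2-/- mice of the first cohort, and the black bars are group means. Red and dark blue points do not overlap for any of the 13, which were called on these arrays, nor for 7.6% of all genes. The light blue and orange points lie above the red ones for Ccng2 and among them for Psmd8 and Trim11.

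The calls were not equally firm. Hmgn2, Ccng2, Mrps27, Zfp940, Dhdds, Sgsm1 and Dao kept an adjusted p under 0.05 when any 1 of the 8 arrays was left out, with the highest value at 0.0289 for Dao. Hsd17b11, Lgals4 and Pop4 were each lost in 7 of 8 such fits, at adjusted p-values of up to 0.251, 0.221 and 0.157. Ehd1 was lost in 5, at up to 0.144, and Psmd8 in 4, at up to 0.0787. The fit of the 8 arrays alone called 20 genes, and the fit without the 3 brain arrays outside the fence called 18, of which 11 in each are among the 13.

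Ccng2 and Dhdds are 2 of the 7 firm calls, 1 in each direction, and their promoters are shown because HMGN proteins occupy promoters. Each line gives the 250 bases before the RefSeq start of the gene in assembly GRCm38.p6, read along the strand of the gene, with each CG in capitals. The windows are chr5:93267323-93267572 on the plus strand for Ccng2 and chr4:134000883-134001132 on the minus strand for Dhdds.
Ccng2: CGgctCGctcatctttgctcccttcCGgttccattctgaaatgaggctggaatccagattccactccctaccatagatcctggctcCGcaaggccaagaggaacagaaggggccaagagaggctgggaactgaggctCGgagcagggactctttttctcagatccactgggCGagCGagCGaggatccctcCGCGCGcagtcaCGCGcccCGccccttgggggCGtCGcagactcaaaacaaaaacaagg
Dhdds: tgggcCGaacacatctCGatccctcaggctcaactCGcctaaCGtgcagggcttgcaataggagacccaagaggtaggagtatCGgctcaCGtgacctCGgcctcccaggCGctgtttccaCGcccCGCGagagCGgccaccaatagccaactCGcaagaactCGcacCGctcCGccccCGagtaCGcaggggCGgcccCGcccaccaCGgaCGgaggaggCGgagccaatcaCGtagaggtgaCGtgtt
The first window holds 16 CG and the second 25. CG reads the same on both strands and occurred in 99.1% of the 7461 windows found for tested genes, with a median of 16 and quartiles of 9 and 22. The 11 called genes with a window also had a median of 16, from 2 in Lgals4 to 25 in Dhdds, so the called genes did not stand apart by this count.

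The called genes sat unevenly on the chromosomes. Chromosome 5 carried Ccng2, Hsd17b11, Sgsm1 and Dao, 4 of the 13 calls against 603 of the 9157 genes tested. Chromosome 7 also carried 4, which were Lgals4, Psmd8, Zfp940 and Pop4, against 691 genes tested. On chromosome 5 Dao was the sixth tested gene after Sgsm1, and the genes between them differed by -0.26 to 0.14 and did not pass. On chromosome 7 Psmd8 was the fourth tested gene after Lgals4, and Zfp940 the seventh after Psmd8. Ryr1, the calcium release channel of muscle and cerebellum, lies between Lgals4 and Psmd8 and was higher by 0.50 ± 0.13 without passing (limma, adjusted p = 0.398). Genes with an unadjusted p under 0.05 made up 9.12% of chromosome 5 and 7.09% of chromosome 7, beside 6.51% of all genes. No test of this spread was made.

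Around the targeted genes themselves few neighbours moved. Of the 5 tested genes on each side of Hmgn2, Dhdds passed, and Zdhhc18 on the other side was higher by 0.31 ± 0.13 at a level under detection in all 4 wild types (limma, adjusted p = 0.736). Of the 5 tested genes on each side of Hmgn1 on chromosome 16 none passed. The most different of them was Kcnj6, a potassium channel subunit of neurons. It read 5.46, 5.47, 5.35 and 4.81 in wild types and 4.97, 4.54, 4.72 and 4.73 in double knockouts, with overlap at wild type replicate 4 (-0.53 ± 0.15, limma, adjusted p = 0.398). Without that array it was -0.68 and passed (adjusted p = 0.0493), as it did with array weights (adjusted p = 0.00433).

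The change of each gene was next compared with its change in Hmgn2-/- brain, which tests the difference between the mutants themselves. In the Hmgn2 knockout 2 genes were called, 0.0218% of those tested: Hmgn2 at -5.95 ± 0.11 and Dhdds at -1.05 (limma, adjusted p = 0.00911). The difference between the mutants passed for 1 gene, 0.0109%, with 438 genes or 4.78% at an unadjusted p under 0.05. That gene was Ccng2, at 1.82 in the double knockout and 0.02 in the Hmgn2 knockout, a difference of 1.80 ± 0.27 (limma, adjusted p = 0.0313). This call was kept in 10 of 20 other fits, with adjusted p-values from 0.00516 to 0.467, and in 3 of the 8 fits that left out 1 array. It was lost without wild type replicate 2 (adjusted p = 0.118), without wild type replicate 3 (0.0611) and without double knockout replicates 1, 3 and 4 (0.0972, 0.118 and 0.0984). Mrps27 differed by -1.79 (adjusted p = 0.131) and Dao by 2.74 (adjusted p = 0.41) without passing. Among the remaining called genes the adjusted p of this difference was 0.41 or higher.

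Levels in the wild types of the first cohort were also set beside the calls, a comparison chosen after the values were seen. It uses the same arrays as the main comparison, so its values stand beside the others and add no separate support. The wild types of the second cohort differed from those of the first at 141 genes, 1.54% of those tested, and the double knockouts differed from the first cohort's wild types at 821, 8.97%. Of the 13 called genes the wild types differed at 4: Ccng2 by -2.80, Trim11 by -1.58, Psmd8 by -0.74 and Zfp940 by -0.69. These are 4 of the 9 genes that rose, and in each the second cohort's wild types were lower. The double knockouts differed from the first cohort's wild types at 6 of the 13. Hmgn2 at -5.63, Mrps27 at -1.71 and Dhdds at -0.95 were below them, and Sgsm1 at 0.58 and Ehd1 at 0.55 above them. Ccng2, which rose against its own wild types, was lower than in the first cohort's wild types by 0.98 on average (difference -0.98, limma, adjusted p = 0.00657). Psmd8 and Trim11 differed from the first cohort's wild types by 0.06 and 0.15, and Zfp940 by 0.30, without passing. What part strain background, cohort and genotype have in these values was not tested.

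The other organs came from the same 8 mice, so they are further readings of the same animals and not new mice. Of the 12 called genes other than Hmgn2, 10 were tested in liver, and 9 of these had the direction seen in brain. The ones called there were Ccng2, Mrps27, Psmd8 and Trim11, beside 0.314% of all genes tested in liver. In thymus 10 of 10 had the direction seen in brain, and Ccng2, Mrps27, Psmd8 and Dhdds were called, beside 0.232% of all genes. In spleen the library labelled wild type replicate 4 and the library labelled double knockout replicate 1 had an Hmgn2 level against their labels. With all spleen arrays none of the 10 tested passed, beside 0.0108% of all genes, and Hmgn2 itself did not pass (limma, adjusted p = 0.398). Without those libraries 10 of 10 had the direction seen in brain, and Ccng2, Mrps27 and Psmd8 were called, beside 0.0758% of all genes.

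Ccng2 rose by 2.18 in thymus and by 1.77 in spleen without the 2 libraries, against 1.82 in brain. In thymus Ccng2 read 6.87 to 7.00 in its wild types and 8.83 to 9.47 in double knockouts. The first cohort's wild types read 9.40 to 9.60 there, so the second cohort's wild types were again the low group. In liver Ccng2 passed as well, but no wild type array of the second cohort detected it. The double knockouts there were at least 2.41-fold higher than the floor of those arrays (means 4.60 and 6.09, limma, adjusted p = 0.00366). In spleen with all arrays Ccng2 differed by 0.57 and did not pass. Mrps27 changed by -1.98 in liver, -1.60 in thymus and -1.84 in spleen without the 2 libraries, and Psmd8 by 0.81, 0.80 and 1.09 in that order. With all spleen arrays those were -0.93 for Mrps27 and 0.71 for Psmd8, neither passing. In liver Psmd8 read 8.91 to 9.17 in its wild types and 9.73 to 9.95 in double knockouts. The first cohort's wild types read 9.83 to 10.00 for Psmd8 there, so they overlapped the double knockouts. For Mrps27 in liver the double knockouts were the low group, at 4.81 to 5.05. Its wild types read 6.78 to 7.12 there, and the first cohort's wild types 6.51 to 6.94. Dhdds changed by -1.09 in thymus, and was at -0.71 in liver and -0.91 in spleen without the 2 libraries, where it did not pass, and at -0.40 with all spleen arrays. Hsd17b11, at -0.84 in brain, was at -1.0 in liver, -0.75 in thymus and -1.07 in spleen without the 2 libraries, none of which passed. With all spleen arrays Hsd17b11 was at -0.54. In liver Hsd17b11 read 9.14 to 10.01 in its wild types and 8.02 to 9.27 in double knockouts. In thymus those were 7.39 to 7.89 and 6.61 to 7.28. The first cohort's wild types read 7.83 to 8.70 in liver and 6.40 to 7.02 in thymus, overlapping the double knockouts. For Dhdds in thymus the first cohort's wild types read 5.81 to 6.22, above the double knockouts at 4.74 to 5.31. The parts of cohort and genotype in these values were not tested.

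**Figure D3:**
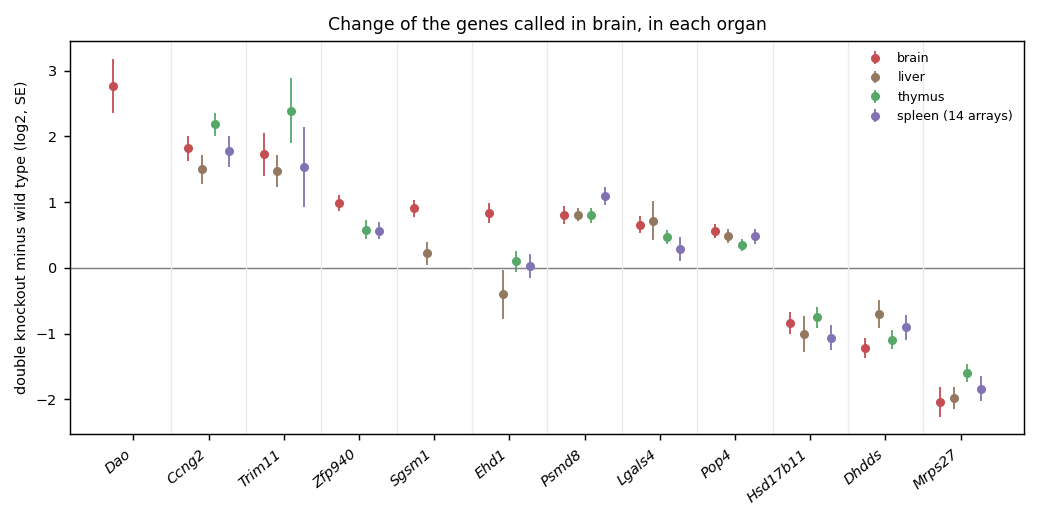
Double knockout minus wild type in log2, with limma's standard error as bars, for the 12 called genes other than Hmgn2 in brain, liver, thymus and spleen. The spleen values leave out the 2 libraries against their labels, a gene not tested in an organ has no point, and the liver point of Ccng2 is set against wild types that were not detected. Ccng2, Trim11, Psmd8, Pop4, Lgals4, Mrps27, Dhdds and Hsd17b11 each lie on the same side of 0 in all organs. Ehd1 is at 0.84 in brain and at -0.41, 0.10 and 0.03 elsewhere.

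For Ehd1 the other organs gave no change of the same kind, and for Dao they could not be read. Dao was not detected on any liver, spleen or thymus array of the 8 mice, so its change was not tested there. Ehd1 was at -0.41 ± 0.37 in liver, 0.10 ± 0.15 in thymus and 0.11 ± 0.15 in spleen with all arrays. A fit of all 64 arrays with the mouse as a random block put its brain change above the mean of the other organs by 0.92 ± 0.27, which did not pass over the 6535 genes detected in every organ (limma, adjusted p = 0.422). Sgsm1 was tested in brain and liver, at 0.91 and 0.22. Over all genes this difference between brain and the other organs was called by limma for 0 genes, with 371 genes or 5.68% at an unadjusted p under 0.05 and 1 gene called under median scaling. The smallest p-values belonged to Rnf145, Igtp, Zbtb7a, Gm14325 and Cdc42ep4, each at an adjusted p of 0.259. Rnf145, a ubiquitin ligase of the endoplasmic reticulum, was at 0.18 in brain and at -0.45 as the mean of the others. Igtp, an interferon-induced GTPase, was at 0.31 and -0.37. Zbtb7a, a transcriptional repressor, was at -1.13 and 0.44, and its brain arrays spread from 6.48 to 8.06 in wild types and from 5.54 to 6.89 in double knockouts, with overlap.

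Trim11 showed how single mice carried through the organs. The wild types low in brain, replicates 2 and 3, read 4.25 and 4.42 in liver and 4.76 and 4.78 in thymus. The other wild types read 5.52 and 5.56 in liver and 7.63 and 7.50 in thymus. So the split of the wild types was the same in 3 organs. In each the double knockouts lay above both pairs, at 6.34 to 6.49 in liver and 8.43 to 8.68 in thymus. The first cohort's wild types overlapped these double knockouts, at 6.32 to 6.77 in liver and 8.39 to 8.75 in thymus. In spleen the library labelled wild type replicate 2 was low at 4.56, and the library labelled replicate 3 was not, at 8.20. The library labelled double knockout replicate 1, with its Hmgn2 level of 12.13 against its label, was low as well, at 4.66.

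Hsd17b11 had the same feature among the mutants. Double knockout replicate 4 was the highest of its group in brain at 6.87, in liver at 9.27 and in thymus at 7.28, where the other 3 read 6.61 to 6.77. P2ry12, the ADP receptor of microglia, read 7.58, 7.18, 5.34 and 7.65 in wild-type brain and 5.64, 5.38, 5.55 and 5.53 in the double knockouts. Wild type replicate 3 lay below all the mutants, and the difference of -1.41 ± 0.36 did not pass (limma, adjusted p = 0.343). Without that array it was -1.94 and passed (adjusted p = 0.000149). The same mouse was the low wild type in thymus, at 4.53 beside 5.80 to 5.85. In spleen the library labelled wild type replicate 3 was not low, at 7.67. The library labelled double knockout replicate 1, whose Hmgn2 level is against its label, read 6.37. Which mouse these spleen libraries came from was not tested. In spleen P2ry12 differed by -0.99 with all arrays (limma, adjusted p = 0.339). Without the 2 libraries it differed by -1.32 and passed (limma, adjusted p = 0.0119). The remaining spleen wild types read 7.10 to 7.74 and the remaining double knockouts 6.04 to 6.38. Both groups of the first cohort lay near the double knockouts, at 5.81 to 6.26 in wild types and 6.05 to 6.52 in Hmgn2-/- mice.

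**Figure D4:**
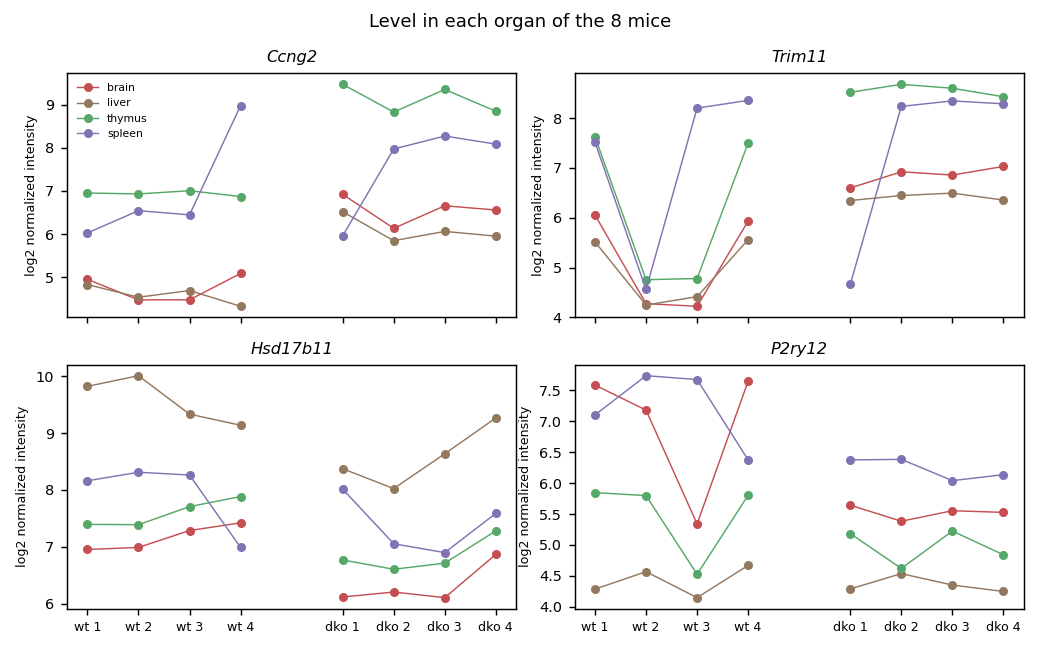
Log2 normalized intensity of Ccng2, Trim11, Hsd17b11 and P2ry12 in 4 organs of the 8 mice, wild type replicates 1 to 4 on the left and double knockout replicates 1 to 4 on the right of each panel. Lines join values of 1 organ within a group and mark no order. Trim11 is low in wild type replicates 2 and 3 in brain, liver and thymus, and P2ry12 in wild type replicate 3 in brain and thymus. The spleen values of wild type replicate 4 and double knockout replicate 1 are those of the libraries against their labels.

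Below the threshold, 17 genes of the next smallest p-values complete the 30 that the naming rule takes. Idua, the lysosomal enzyme that degrades heparan and dermatan sulfate, read 6.42, 6.43, 6.49 and 6.79 in wild types and 7.17, 7.06, 7.21 and 6.93 in double knockouts. It was just outside the threshold, at 0.56 ± 0.11 (limma, adjusted p = 0.0603), and its groups did not overlap. Also higher were Ociad1 by 0.50 (adjusted p = 0.0633), Zfp420 by 0.92 (0.0804), Asgr1 by 0.78 (0.094), and Dgkq, a diacylglycerol kinase, by 0.59 (0.234). Cabp2, Glp2r, Pttg1 and Dvl1 were higher by 0.42 to 0.62 with adjusted p-values of 0.163 to 0.398 by limma. Pttg1 was detected on 1 of the 8 arrays. Lower were Ublcp1 by -0.54 (0.122), Dbpht2 by -0.71 (0.122) with no double knockout detected, Ola1 by -0.49 (0.345) and Uck2, a uridine-cytidine kinase, by -0.44 (0.398).

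Of the stress and inflammation genes in that group, Casp1, the caspase of inflammasomes, read 6.81 to 7.24 in wild types and 6.50 to 6.69 in double knockouts (-0.50 ± 0.12, limma, adjusted p = 0.278). Atf4, the transcription factor of the integrated stress response, read 8.45 to 8.88 against 8.21 to 8.43 (-0.43 ± 0.11, adjusted p = 0.311). Fcrls, a microglial gene, was higher, at 6.19 to 6.25 against 6.62 to 7.11 (0.60 ± 0.15, adjusted p = 0.278). None of these groups overlapped, which 7.6% of all genes share, and none passed.

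The genes were then read by 33 lists of cell types, regions and pathways. Of the 13 called genes 7 were in a list, and 24 of the lists held no called gene. The lists were chosen with earlier results of these data known, so these counts are no separate result. The median of all genes, 0.01, is the value each list median is read against, and the share of all genes with an unadjusted p under 0.05 was 3.6% on the higher side and 2.9% on the lower side.

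Among the chromatin genes, the HMGN family's single call was Hmgn2. The 11 tested HMG-box and HMGA genes had a median of -0.02 and no member with an unadjusted p under 0.05, with Tfam, the packaging protein of mitochondrial DNA, at -0.15 and Ubtf at 0.14. The 9 linker histone and variant genes had a median of -0.02, with H3f3a at -0.19 and H2az1 at -0.14. The 34 nucleosome remodelers and histone-modifying enzymes had a median of 0.08, and 25 of them were higher. None was called, and 5 had an unadjusted p under 0.05, all higher. They include subunits of the BAF remodeling complex, with Smarcc2 at 0.39, the ATPase Smarca4 at 0.36 and Smarcc1 at 0.36, beside the histone deacetylase Hdac4 at 0.37, at adjusted p-values of 0.593 to 0.74. Smarcc2 read 8.24 to 8.54 in wild types and 8.75 to 8.92 in double knockouts without overlap, and the groups of the other 3 overlapped.

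Oligodendrocytes make myelin, and HMGN proteins have been tied to their lineage genes. The 11 tested lineage determinants had a median of -0.02, with 0 called and 0 at an unadjusted p under 0.05 in limma, and the smallest p-values belonged to genes including Nkx2-2 at 0.34 and Neu4 at 0.20. The 16 myelin genes had a median of -0.15, 12 lower and 4 higher, with 0 called and 1 at an unadjusted p under 0.05. That was Car2, carbonic anhydrase II, which read 9.09, 9.22, 9.33 and 8.57 in wild types and 8.88, 8.71, 8.64 and 8.20 in double knockouts. Its groups overlapped (-0.44 ± 0.15, limma, adjusted p = 0.571). Cnp, an enzyme of myelin, went the other way at 0.36, and Mobp was at -0.20. The summed intensity of the myelin genes ran from 24130 to 26793 in wild types and from 23356 to 27104 in double knockouts.

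Among glia and vessels, the 18 tested astrocyte genes had a median of 0.02, 9 higher and 9 lower, and Dao was the called member. Agt was at 0.27 and S100b, a calcium-binding protein, at 0.34, without passing. The 20 microglial genes had a median of -0.03 with none called. Of these 1 was higher and 4 were lower at an unadjusted p under 0.05. Fcrls at 0.60 stood against P2ry12 at -1.41, P2ry13 at -0.39 and the protease Ctss at -0.49, so markers of the same cell type had values of opposite sign. P2ry13 read 6.84 to 7.35 in wild types and 6.61 to 6.74 in double knockouts, without overlap. The 15 endothelial and pericyte genes had a median of 0.03, with the receptors Flt1 at 0.44 and Tie1 at 0.41 and the transporters Slc2a1 at -0.24 and Slco1a4 at -0.38, none passing. The 11 choroid plexus and ependymal genes had a median of -0.02, with Sostdc1 at -0.47 and Folr1 at -0.34.

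Neuronal lists held no called gene. The 15 glutamatergic genes had a median of 0.07, with the AMPA receptor subunit Gria1 at -0.59 and the kinase Camk2a at 0.25. Neurod2 was at 0.34 and the vesicular transporter Slc17a7 at 0.44. The 14 GABAergic genes had a median of 0.01 that turned to -0.02 under median scaling. Gabrd, a GABA-A receptor subunit, was at 0.32 and Pvalb at 0.29. The summed intensity of the list was 17146 to 18493 in wild types and 18939 to 19502 in double knockouts, without overlap. Such a sum is weighted to the brightest genes and includes Pvalb, and it was not taken without Pvalb. Of the 14 genes 8 were higher and 6 lower, so the sum does not show a shift of the list. The 11 monoaminergic genes had a median of -0.20 and 10 were lower, none at an unadjusted p under 0.05, with the serotonin transporter Slc6a4 at -0.30 and the dopamine transporter Slc6a3 at -0.20. The 16 synaptic vesicle genes, with a median of -0.02, included Cplx2 at -0.64 and Syn2 at -0.22. The 17 postsynaptic genes, also at -0.02, included Nlgn3 at 0.23 and Dlgap3 at 0.32.

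Region markers bear on how the brains were sampled. The 17 striatal genes had a median of -0.07, with Isl1 at -0.35, Pde10a at -0.26 and Tac1 at -0.18. The 11 cerebellar and hindbrain genes had a median of 0.15, with Cbln1 at 0.31, Gabra6 at 0.35 and Zic2 at -0.42. Their summed intensity was 3191 to 4530 in wild types and 4392 to 5094 in double knockouts, with overlap, and none of the 11 passed. Dao is an enzyme of hindbrain and cerebellar astrocytes, and the part of these genes in its rise was not tested. The 10 hypothalamic and pituitary genes had a median of -0.05, with Pmch at -0.27, and their summed intensity ran from 3375 to 16634 in wild types and from 3342 to 9662 in double knockouts.

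Tissue from outside the brain was read from 2 lists. The 7 tested blood cell genes had a median of 0.05, with Slc4a1, the red cell anion exchanger, at 0.28. The 6 tested skeletal muscle genes were all higher, with a median of 0.27, and Eno3 at 0.38 and Myl1 at 0.30 had an unadjusted p under 0.05 without being called. Mb, myoglobin, was at 0.25 and was detected in no wild type and 2 double knockouts. The summed intensity of the muscle genes was 3734 to 4809 in wild types and 4969 to 5721 in double knockouts, without overlap. Pvalb, counted above as a GABAergic gene, is 1 of the 6. Without Pvalb the sums were 313 to 333 and 349 to 384, again without overlap. Those sums rest on 5 genes, among them Mb. Single genes did not overlap in 7.6% of cases, and no such rate was taken for list sums.

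**Figure D5:**
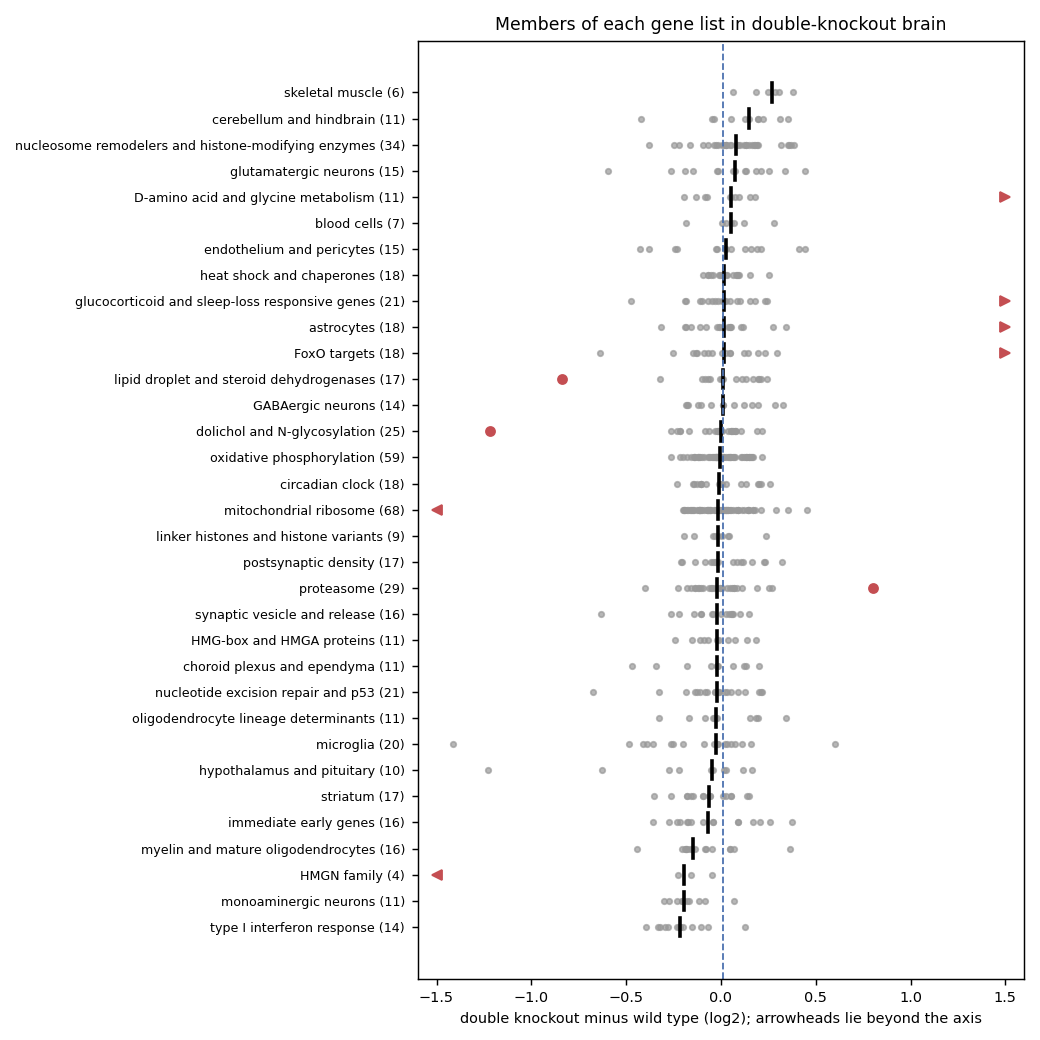
Double knockout minus wild type in log2 for every tested member of the 33 lists, with the number of tested members in parentheses. Grey points did not pass, red points were called, black bars are list medians and the dashed line is the median of all genes at 0.01. The called members stand apart from the rest of their lists, and the interferon and monoaminergic lists have the lowest medians, -0.22 and -0.20, with 1 member above 0 in each.

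Of the signalling and stress lists, the 14 tested type I interferon genes had a median of -0.22 and 13 were lower, with 0 called and 3 at an unadjusted p under 0.05 in limma. Ifit3, an interferon-induced antiviral protein, read 8.42, 8.23, 8.05 and 8.03 in wild types and 7.82, 7.72, 7.85 and 7.75 in double knockouts. Its groups did not overlap (-0.40 ± 0.15, limma, adjusted p = 0.654). Usp18, the protease that removes ISG15, was at -0.32, Ifi35 at -0.28 and Lgals3bp at -0.33. The summed intensity of the list was 3197 to 3660 in wild types and 2825 to 3351 in double knockouts, with overlap.

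The 18 FoxO targets had a median of 0.01, with Ccng2 the called member. Klf6 at -0.64 and Bcl6 at -0.25 were lower and the muscle ubiquitin ligase Fbxo32 at 0.30 higher, none of them passing. The 21 glucocorticoid and sleep-loss genes, which also hold Ccng2, had a median of 0.02, with the cold-induced RNA-binding protein Rbm3 at -0.47 and Fkbp5 at 0.18. The 16 immediate early genes had a median of -0.07, with Egr2 at -0.36, Egr1 at -0.18 and Jun at 0.20. The 18 clock genes had a median of -0.01, with the kinase Csnk1e at -0.23, Per1 at 0.26 and Dbp at 0.19. The 18 heat shock and chaperone genes had a median of 0.02, with Hspa4l at 0.25. Hspa5, detected on 1 of the 8 arrays, was at 0.16. The 21 genes of nucleotide excision repair and p53 had a median of -0.02, with the repair factor Ercc8 at -0.68, Cetn2 at -0.33 and Sesn2 at 0.22, and none passed.

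Most of the metabolic lists held 1 called gene each. Because the lists were chosen with earlier results of these data known, that count is not a finding about the pathways. Mrps27 was the only called gene of 68 tested mitochondrial ribosomal proteins, whose median was -0.01, with Mrps12 at 0.45 and Mrps6 at 0.29. The 59 oxidative phosphorylation genes had a median of -0.01 and none was called, with the ATP synthase subunits Atp5c1 at -0.22 and Atp5o at -0.26. Psmd8 was the only called gene of 29 proteasome genes, whose median was -0.02, with the catalytic subunit Psmb5 at -0.40 and Psma3 at -0.22. Dhdds was the only called gene of 25 in dolichol synthesis and N-glycosylation, with a median near 0. Nus1, the partner subunit of Dhdds in the same enzyme, was at -0.23, Dolk at 0.19 and Alg14 at -0.22. Hsd17b11 was the only called gene of 17 in the lipid droplet and steroid dehydrogenase list, with a median of 0.01, beside Rab18, a small GTPase of lipid droplets, at -0.32 and Abhd5 at 0.21. Dao was the only called gene of 11 in D-amino acid and glycine metabolism, with a median of 0.05. The serine transporter Slc1a4 was at 0.18 and the serine synthesis enzyme Phgdh at -0.20.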

How the data were processed

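Total RNA was measured on Illumina bead arrays, of which the 16 brain arrays were used here, with the other organs for comparison. Per the file headers and values, the authors deposited a raw signal intensity for each of 25697 probes on a linear scale and a detection p-value beside it. A second deposited table of normalized intensity was used as an alternative. The submitters' processing notes name GenomeStudio 2011.1. No label or header used here gives the genome build, the slides or the probe sequences. Each brain array comes from a mouse of its own per the labels, and the arrays of the other organs come from the same mice. For arrays their number limits the precision.

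Raw intensities were background-corrected and quantile-normalized to log2 values with neqc (limma 3.58.1, R 4.3.3; offset 16). Probes with detection p under 0.01 on at least 4 of the 16 brain arrays were kept, and the brightest probe stood for a gene. GEO's platform table named 1 gene for 23978 probes and none for 1719, and 23971 matched RefSeq (GRCm38.p6). A limma fit of 4 group means was adjusted by Benjamini-Hochberg. The fit, checked on simulated data, was repeated with other scalings, filters, probes, weights and arrays left out. Deviations of mice sharing a replicate number correlated at -0.35, 0.10, -0.23 and 0.01, so the numbers do not pair the mice.

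The groups, 33 gene lists (736 of 829 words on the array) and naming rule were chosen with earlier results of these data known. The rule names the HMGN genes, all called genes and the next smallest p-values up to 30, the 4 smallest p-values of each list, the 5 smallest for each difference tested, and neighbours of Hmgn1, Hmgn2 and called genes. Not every gene it takes is printed.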

Additional observations from a re-analysis of the deposited data

Results flagged for a closer look

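In some groups of 4, 1 array lay far from the other 3 by Dixon's criterion, which chance alone meets in about 1 in 20 groups. This was so in 12 of 240 groups, over the 120 genes examined. In wild types, replicate 4 read 6.66 for Dao beside 4.23 to 4.34, 9.80 for H2az1, 5.78 for Ercc8, 9.92 for Mrps12 and 8.28 for Dolk. Wild type replicate 2 read 7.07 for Dhdds and 4.72 for Glp2r, and replicate 1 read 5.75 for Lgals4 and 10.55 for Cbln1. In double knockouts, replicate 4 read 6.87 for Hsd17b11 beside 6.11 to 6.21 and 7.91 for Cdc42ep4, and replicate 3 read 4.99 for Hspa5. The change of Ccng2 differed between the mutants by 1.80 in the test of that difference, where mutant and cohort cannot be told apart.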

How the results depend on the processing

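The 13 calls became 20 with the 8 arrays alone, 20 with every probe on its own and 339 with array weights. They became 7 with the replicate number as a block, and 7 to 18 without 1 array. Where detection on all 16 arrays was required 5 genes were called. Only 7 of the 13 were tested under that filter, and 5 of these were kept. Hmgn2, detected on 9 of the 16 brain arrays, was not among those tested. For the other settings the count was 11 to 18. The 1 call for the difference between mutants became 2 under median scaling and in the deposited normalized table, 6 with array weights, 0 to 4 without 1 array, and 0 with no background correction, an offset of 50, detection on all 16 arrays, no detection filter, the replicate block or without the arrays outside the fence. The 0 calls for brain against the other organs became 1 under median scaling (Igtp), 321 with array weights and 1 without the 2 spleen libraries (Rnf145), and stayed at 0 with the replicate block and when 1 brain array was left out. Ercc8 was at -0.68 in the main fit and at 0.0914 with the 8 arrays alone. The brightest probe kept was chosen again in that fit, so the 2 values of Ercc8 may come from different probes. They do not show that 1 probe changed sign. The cause of the changes between settings was not tested. The replicate block cost 6 of the 13 calls, Trim11, Psmd8, Ehd1, Lgals4, Pop4 and Hsd17b11, and the mice share no more than a number. Levels near 4 to 5 are close to background, and with an offset of 50 in place of 16 the change was 1.80 for Dao, 1.08 for Ccng2 and -1.27 for Mrps27, each still passing. Over all settings Dao ranged from 1.19 to 3.34, Ccng2 from 0.64 to 2.41 and Mrps27 from -2.63 to -0.77.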
